A study of Mus musculus with 4 samples.

Results

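The comparison set E14 mouse embryonic stem cells carrying an shRNA against Tdg beside E14 cells carrying a control shRNA, on the autosomes and outside a left-out window on each of chromosomes 9 and 2. Members were all sites listed on chromosomes 1 to 19, leaving out chromosome 9 below 3.04 Mb and chromosome 2 from 98.5 Mb to 98.51 Mb (build mm9). This kept 20379 of the 472220 sites of the series, of which 7980 of 8948 came from the Tdg shRNA library and 12399 of 12895 from the control shRNA library. They fell into 14305 blocks of 1 kb, cut at whole multiples of 1000 bp, and these blocks are the unit of comparison. Choosing the members used positions only and no level.

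5-Methylcytosine is oxidised by TET enzymes to 5-hydroxymethylcytosine, 5-formylcytosine (5fC) and 5-carboxylcytosine (5caC). TDG, the glycosylase targeted by the shRNA, cuts the last pair of these bases out of DNA, and base excision repair puts back an unmodified cytosine. In embryonic stem cells this pathway is known for turning over methylation at promoters and enhancers.

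Reduced-representation MAB-Seq was used, in which genomic DNA is treated with the CpG methyltransferase M.SssI, cut with MspI (which recognises CCGG), and bisulfite-converted. A CpG cytosine still read as thymine can be 5fC or 5caC, or have escaped the enzyme. Other sources of such reads, among them bases that differ from build mm9, were not examined. The share of such reads is called the level here, in percent and after the background subtraction made by the authors. Each group was 1 library. The labels of the groups differ in the shRNA alone (shRNA Tdg and shRNA control), no expression was measured here to show how far Tdg was depleted, and the construct and any selection of clones were likewise not given in the sources used here. Sheared whole-genome DNA of wild-type E14 cells, sequenced as 2 libraries, served as a readout that the choice of members did not use. With 1 library per group no test between groups was possible, and the intervals below are 95% intervals for counting error alone. How many reads stand behind a level is unknown for either shRNA library.

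Sequence is printed as the first whole-genome library lists it, in 5 bases centred on a plus-strand cytosine. For strongest sites of blocks described below that were listed at the same base in that library, these 5 bases are shown to identify the CpG (in capitals) and its neighbours, in build mm9 and on the plus strand.
Chromosome 9 block, strongest site in both libraries, chr9:35112902-35112906: ggCGg
Chromosome 12 block, strongest site with Tdg shRNA, chr12:68160161-68160165: ccCGg
Chromosome 17 block, strongest site in both libraries, chr17:39983628-39983632: ccCGt
Chromosome 8 block, strongest site with Tdg shRNA, chr8:3754457-3754461: gcCGa
Chromosome 4 block, strongest site of a block with Tdg shRNA only, chr4:3008192-3008196: caCGg
Chromosome 11 block, strongest site of a block with Tdg shRNA only, chr11:3044602-3044606: taCGt
Of these, the chromosome 12 site alone lay within an MspI recognition sequence. The chromosome 8 and chromosome 4 blocks each had another Tdg shRNA base tied at 100%, 3754464 and 3008204, not printed here.

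Chromosome starts and deep sequence remained among the members and went with the Tdg shRNA library, by limits set after this was seen. Blocks with a site of both libraries are called shared, and those of a single library Tdg-only or control-only. Among blocks that begin below 3.2 Mb, 44 (32.0 to 59.1) were Tdg-only, 10 shared and 6 (2.20 to 13.1) control-only. A highest level of 50% or more was found in 22 of the 44 Tdg-only blocks and in 0 of the 6 control-only blocks. Reads of the second whole-genome library were recovered from its p-values, only at sites with p above 1e-07, so other deep sites may be missed. Among blocks in which a site of that library had at least 100 recovered reads, 27 were Tdg-only, 22 shared and 3 control-only. The most reads recovered in a kept block were 2425, against a median of 13 over the sites of that library. No repeat annotation was used, so that the members are outside the 2 left-out windows and not outside all repeats. Without blocks that begin below 4 Mb or hold such deep sites, there were 4262 Tdg-only, 2356 shared and 7496 control-only blocks.

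Most blocks were listed in 1 of the libraries only, and more of them in the control. The Tdg shRNA library had a site in 6763 blocks and the control library in 9951. Both libraries had a site in 2409 blocks, which is 35.6% (34.5% to 36.8%) of the Tdg shRNA blocks and 24.2% (23.4% to 25.1%) of the control blocks. Another 4354 blocks were listed with Tdg shRNA only and 7542 with control shRNA only, a ratio of 0.577 (0.556 to 0.599). The order was the same on each of the 19 autosomes, with more control-only than Tdg-only blocks and more Tdg-only than shared blocks. The ratio of Tdg to control shRNA sites ranged from 0.567 (0.492 to 0.652) on chromosome 15 to 0.724 (0.654 to 0.802) on chromosome 11, around 0.644 (0.626 to 0.662) over all. This ratio depended on weak sites, since with an uncorrected level of at least 10% it was 0.871 (0.844 to 0.900), with 6994 and 8026 sites.

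Blocks of 1 library usually held a single site. Of Tdg-only blocks 90.03% (89.1% to 90.9%) had 1 site and the fullest had 6, and of control-only blocks 85.3% (84.5% to 86.1%) had 1 site and the fullest had 6 too. In shared blocks, 77.9% had a single Tdg shRNA site and 70.0% a single control site. Blocks with more sites were more often shared. With Tdg shRNA the share also listed in the control was 32.4% for 1 site, 51.5% for 2 sites and 72.5% (65.0% to 79.1%) for 3 or more. The corresponding shares of control blocks were 20.8%, 35.3% and 52.3% (47.6% to 57.0%).

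Most blocks of a single library had no site of the other library within 10 kb of their strongest site. From the strongest site of a Tdg-only block, the nearest control site was a median of 40702.5 bp away (38038 to 42789), and 24.8% had one within 10 kb. From that of a control-only block, the nearest Tdg shRNA site was a median of 64103 bp away (60793 to 67099), and 18.3% had one within 10 kb. The block on either side was listed in the other library for 10.8% of Tdg-only and 7.45% of control-only blocks. The list searched from Tdg-only blocks was the longer one, with 12399 sites against 7980, and its part in the shorter distance was not tested. By definition, the block itself held no site of the other library. Distances for sites placed at random were not computed, so these values do not show whether such blocks lay apart from the other list or close to it.

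Blocks with a higher strongest site were more often shared. For Tdg shRNA blocks with a highest level below 5%, 26.4% (20.7% to 32.7%) were also control blocks, and from 10% to 20% the share was 30.0% (28.4% to 31.6%). It was 45.4% from 20% to 50%, 63.5% from 50% to 90% and 74.8% (70.8% to 78.6%) at 90% or more. Among control blocks the share was 13.8% (12.1% to 15.6%) below 5%, 19.05% from 10% to 20%, 38.1% from 20% to 50%, 70.2% from 50% to 90% and 75.6% (71.8% to 79.1%) at 90% or more. The rise was also present in blocks of a single site, from 53 of 212 blocks below 5% to 74.7% at 90% or more for Tdg shRNA, and from 13.6% to 75.4% in the control. At levels below 20% a larger share of Tdg shRNA blocks than of control blocks was shared, while from 50% upward the intervals of the libraries overlapped.

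**Figure D1:**
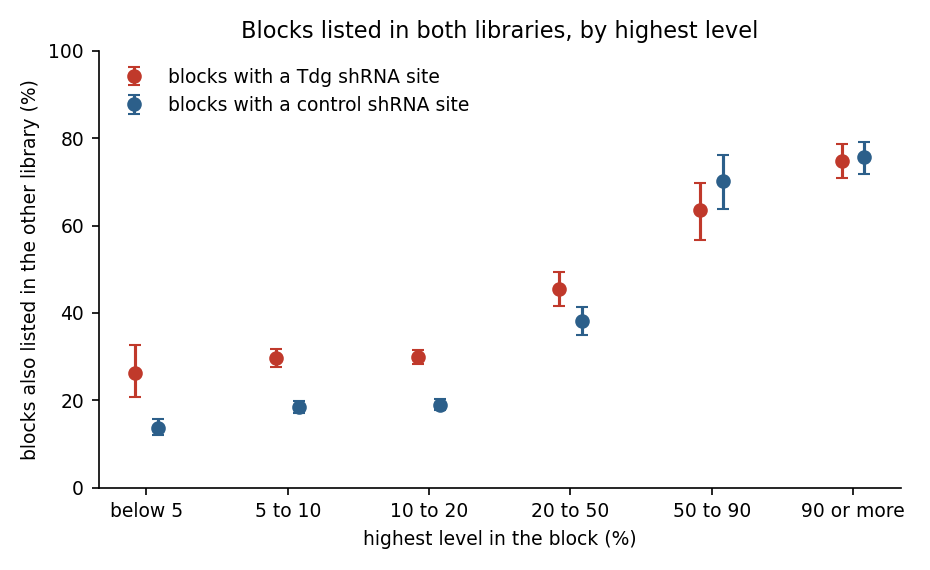
Share of 1 kb blocks also listed in the other library (y axis, percent) by the highest level in the block (x axis, percent), for Tdg shRNA blocks and control shRNA blocks. Points are shares, bars exact 95% intervals for counting error, and both libraries reach about the same share at 90% or more (74.8% and 75.6%).

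Tdg-only blocks had a higher median of highest levels than control-only blocks, a gap that depended on weak sites. The median was 11.9% (11.4% to 12.1%, quartiles 8.52% and 15.4%) for Tdg-only and 9.27% (8.99% to 9.37%, quartiles 5.94% and 14.2%) for control-only blocks. At equal numbers of sites, in blocks of 1 site, it was 11.4% and 8.78%. Below 5% lay 3.72% of the Tdg-only blocks and 17.1% of the control-only blocks. With an uncorrected level of at least 10% required of every site, the medians were 12.5% (Tdg-only) and 12.9% (control-only). The interval of the control-only median, 12.5% to 12.9%, reached the Tdg-only median. At this minimum the medians lay close together and the backgrounds subtracted differed, 3.3% (Tdg shRNA) and 2.9% (control), so no order is read from them. Without the minimum, the Tdg-only median was the higher also with no background subtracted, at 14.8% against 11.9%. With the minimum, the counts came to 4244 Tdg-only and 4887 control-only blocks. The part that read depth played in these weak sites was not tested.

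At the upper end, blocks with a highest level of 90% or more were few in both single-library classes. A highest level of 90% or more was found in 125 Tdg-only blocks, 2.87% (2.40% to 3.41%), and in 137 control-only blocks, 1.82% (1.53% to 2.14%). In shared blocks it was found in 372 with Tdg shRNA, 15.4%, and in 424 with control shRNA, 17.6%. Of shared blocks, 347 reached it in both libraries.

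Within shared blocks the libraries fell into a group with the same strongest base and a group without. The strongest site (any of them, where several tied) was the same base in 1085 of 2409 blocks, 45.0% (43.0% to 47.1%), and a different base in 1324. Where it differed, the strongest sites were a median of 107 bp apart (97 to 116, quartiles 28.75 and 238). The distance was 50 bp or less in 433 blocks, 51 to 200 bp in 477 and more than 200 bp in 414, and in 1 block it was the adjacent base. The strongest base of one library was seldom a weaker site of the other: that of the Tdg shRNA library was a weaker control site in 78 of the 1324 blocks, 5.89%, and that of the control library a weaker Tdg shRNA site in 76, 5.74%. No base at all was common to the libraries in 1186 shared blocks, 49.2%. Blocks of 1 site in each library, 1445 in all, had the same base in 49.9% (47.3% to 52.5%).

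The share with the same strongest base followed the level. It was 19.5% (16.4% to 22.9%) where the mean of both highest levels was 5% to 10%, and 24.6% from 10% to 20%. From 20% to 50% it was 67.7% (62.5% to 72.7%), from 50% to 90% 79.5%, and at 90% or more 372 of 374 blocks, 99.5%. Below 5% there were 42 blocks, of which 35.7% (21.6% to 52.0%) had the same base.

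Highest levels ranked most alike where the base was the same. Across the 1085 blocks with the same strongest base, Spearman's rho of the highest levels was 0.90, and the medians were 35.2% (Tdg shRNA) and 50.2% (control shRNA). Part of this rank order lay between blocks near 100% and the rest, since rho was 0.66 over the 662 blocks with the same base and both levels below 90%. Across the 1324 blocks with different bases, rho was 0.18, with medians of 11.4% and 9.89%. These are descriptions over blocks, which share the libraries and are not replicates. By distance, rho was 0.43 for strongest sites up to 50 bp apart, 0.12 at 51 to 200 bp and -0.02 beyond 200 bp.

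**Figure D2:**
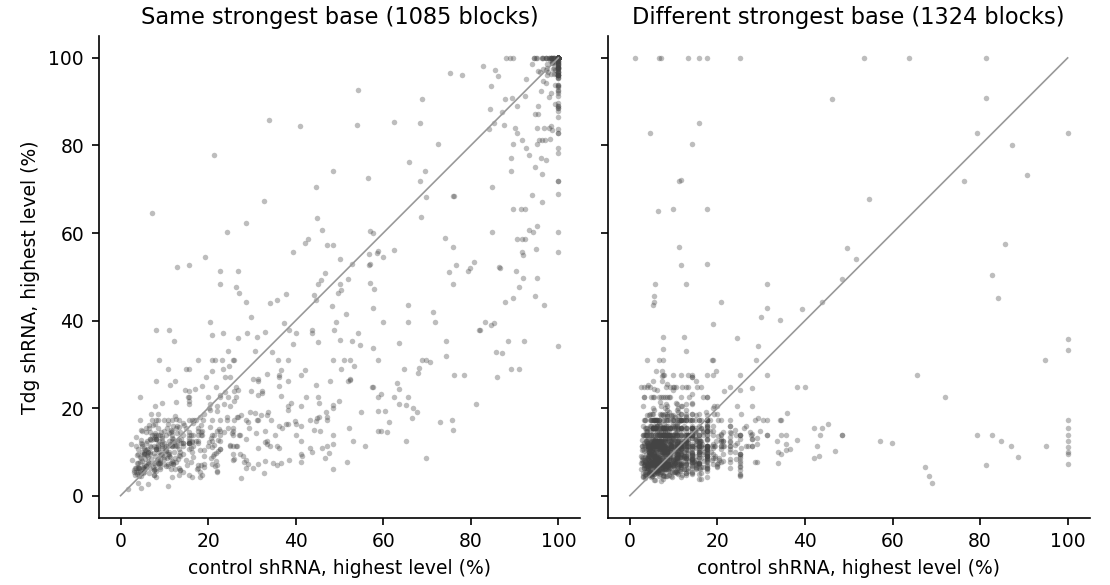
Highest level per shared 1 kb block with control shRNA (x axis, percent) and Tdg shRNA (y axis, percent), for blocks whose strongest site is the same base (left, 1085 blocks) and a different base (right, 1324 blocks). Each point is a block and the line marks equal levels. Points on the left spread along the line and lie below it more often than above (538 against 296), while those on the right gather below about 20% in both libraries.

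Over all shared blocks the highest level was higher and lower about as often, while large differences were more often towards lower levels with Tdg shRNA. It was higher in 1064 blocks, lower in 1094 and equal in 251, with a median of 0 points for the difference, taken as Tdg minus control shRNA (higher and lower refer to the Tdg shRNA level). A highest level at least 10 points higher with Tdg shRNA was found in 221 of 2409 blocks (9.17%) and one at least 10 points lower in 408 (16.9%). At the same strongest base, 62 blocks were higher by at least 10 points and 271 lower, 538 were lower by any amount, 296 higher and 251 equal. Of those that were not equal, 64.5% (61.2% to 67.8%) were lower with Tdg shRNA. Over the unequal blocks, higher and lower together, the median difference was -2.91 points (-3.83 to -2.22). Over all 1085 blocks with the same strongest base it was 0 points (-0.50 to 0). At different bases, 768 blocks were higher and 556 lower with Tdg shRNA, with a median difference of 1.46 points (0.97 to 1.91). The lower end of the control list reaches lower levels, as above, and its part in this rise was not tested.

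The difference changed with the level, and at the same base it was largest at intermediate levels. The ranges were set by the mean of the same levels, which leaves less room for a difference in the lowest and highest ranges. The part this played in the larger differences at intermediate levels was not tested. Where the mean of both levels was 20% to 50%, the Tdg shRNA median was 23.0% and the control median 37.4%, 174 of 231 blocks were lower, and the median difference was -13.5 points (-17.8 to -9.55). From 50% to 90%, the medians were 60.1% and 84.6%, 103 of 132 blocks were lower, and the median difference was -18.8 points (-25.3 to -13.3). From 10% to 20% it was -1.76 points (-3.24 to -0.36), and from 5% to 10% it was 1.26 points (0.25 to 2.52), with 71 of 117 blocks higher with Tdg shRNA. At 90% or more, 251 of 372 blocks were equal, 79 lower and 42 higher with Tdg shRNA, and the unequal ones differed by a median of -1.57 points (-2.41 to -0.80). Without chromosome starts and deep blocks, the differences were -13.7 points at 20% to 50% and -19.3 points at 50% to 90%. Blocks with different bases also had positive medians at low levels and negative ones above 20%. Their difference was 2.27 points (1.72 to 2.75) from 5% to 10%, with 324 higher and 158 lower, and 0.66 points (-0.08 to 1.51) from 10% to 20%. In blocks with different bases the differences at 20% to 50% and at 50% to 90% were -7.07 points (-14.1 to 2.17) and -5.72 points (-64.2 to 36.2), both with intervals that include 0.

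**Figure D3:**
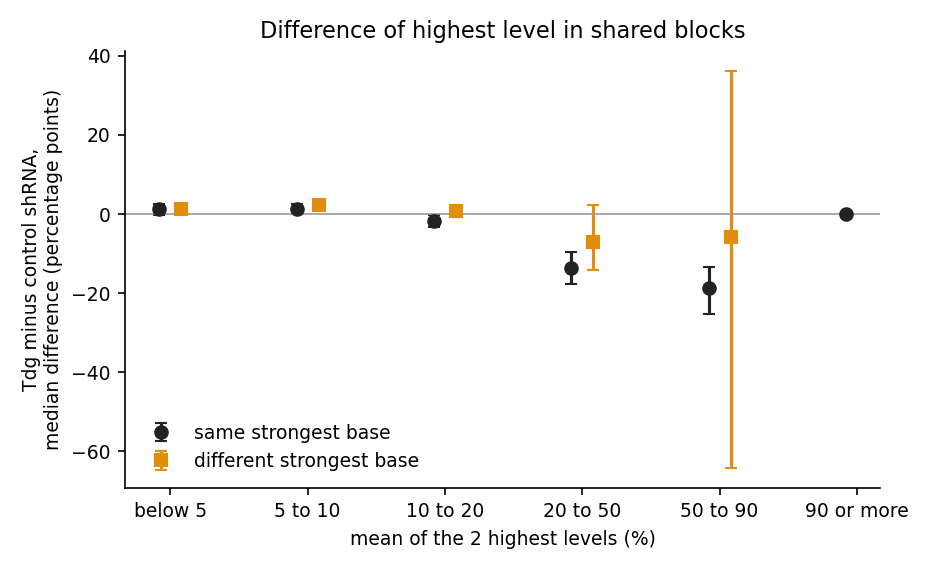
Median difference of highest level, Tdg minus control shRNA (y axis, percentage points), by the mean of both highest levels (x axis, percent), in shared blocks with the same or a different strongest base. Bars are 95% intervals from order statistics, and sets of fewer than 6 blocks are not drawn. The mean leaves less room for a difference in the lowest and highest ranges. At the same base the median is -13.5 points at 20% to 50% and -18.8 points at 50% to 90%.

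The background subtracted was 3.3% for the Tdg shRNA and 2.9% for the control library. With it added back, the median differences at the same base were -12.9 points at 20% to 50% and -18.2 points at 50% to 90%.

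The number of sites in shared blocks leaned to the control. As many sites were listed in both libraries in 1616 blocks, more with Tdg shRNA in 275 and more with control shRNA in 518. At least 3 more sites were found with Tdg shRNA in 10 blocks and with control shRNA in 37. The largest excess of Tdg shRNA sites was 9 and that of control sites 5. The mean level of a block had a median of 13.8% for Tdg shRNA sites and 13.0% for control sites over shared blocks.

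In 3 of the 4 blocks with the most extra Tdg shRNA sites, these lay within 164 bp of each other. The first lay on chromosome 9 from 35112001 to 35113000, with 12 Tdg shRNA sites within 161 bp and 3 control sites. All 3 control bases were also Tdg shRNA sites, and the shared strongest site at 35112904, printed above, was at 100% in both. The remaining control levels were 15.2% at 35112846 and 13.5% at 35112885, where the Tdg shRNA levels were 4.19% and 2.91%. The Tdg shRNA list here included 5 pairs of adjacent bases, as the 2 strands of a CpG would give. The adjoining block, from 35113001 to 35114000, held 10 and 3 sites, with highest levels of 12.6% and 11.1%. These blocks were deep in the second whole-genome library, with up to 1548 and 1343 recovered reads at a site against a median of 13.

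On chromosome 4 from 70039001 to 70040000 there were 9 Tdg shRNA and 3 control sites, with highest levels of 44.3% and 43.8% at bases 95 bp apart. The 3 control bases were again all in the Tdg shRNA list, and at the control's strongest base, 70039252, the level was 43.8% with control and 19.6% with Tdg shRNA. Up to 18 reads were recovered here, from sites with p above 1e-07 alone. On chromosome 12 from 68160001 to 68161000 there were 7 and 1 sites, and the single control site at 68160290 had 13.3% with control and 6.99% with Tdg shRNA. The strongest Tdg shRNA site of this block was at 100%, and the same base was at 99.4% in the first whole-genome library. Up to 123 reads were recovered in it, above the limit of 100 for a deep block. Over these 4 blocks, 32 of 38 Tdg shRNA sites and 10 of 10 control sites were listed at the same base in the second whole-genome library.

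The blocks with the most extra control sites had no base in common with the wild-type lists. On chromosome 17 from 51971001 to 51972000 the control library listed 6 sites from 4.25% to 33.4%, and the Tdg shRNA library listed the strongest of these alone, at 12.5%. On chromosome 1 from 197067001 to 197068000 there were 6 control and 2 Tdg shRNA sites. This block too was deep, with up to 1962 recovered reads, and the highest level in it in the first whole-genome library was 98.5%, at another base. The 2 Tdg shRNA sites were the strongest control sites as well, at 91.0% and 94.6% with control and 77.8% and 87.1% with Tdg shRNA. On chromosome 5 from 91278001 to 91279000, 5 control sites and 1 Tdg shRNA site shared the strongest base, at 89.6% and 80.3%. In the fourth block, on chromosome 5 from 114221001 to 114222000, all 5 control sites were at 100% within 46 bp, and the Tdg shRNA library listed a different base at 7.20%. None of the 22 control and 5 Tdg shRNA sites of these blocks was listed at the same base in either whole-genome library.

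The largest differences of highest level were at sites that 1 library listed and the other did not. The first lay on chromosome 8 from 3754001 to 3755000, with a highest level of 100% for Tdg shRNA sites and 1.08% for control sites. Both control bases were listed with Tdg shRNA too, at 0.517% and 1.34% against 1.08% and 1.06% with control, so that the bases in common were low in both libraries. Of the Tdg shRNA bases at 100%, base 3754459 was at 100% in the first whole-genome library as well. The tied base 3754464 was listed in neither whole-genome library. The block begins below 4 Mb and had up to 386 recovered reads, so that it is among those left out with chromosome starts and deep blocks. The next block, on chromosome 7 from 118226001 to 118227000, had highest levels of 100% and 6.62%. The third, on chromosome 5 from 129526001 to 129527000, had 100% and 7.06%, and neither had a base in common. The 3 blocks with the largest differences in the other direction likewise had no base in common. They were the block on chromosome 5 at 114221001, with 7.20% against 100%, the block on chromosome 9 from 85737001 to 85738000, with 9.51% against 100%, and the block on chromosome 5 from 8798001 to 8799000, with 10.1% against 100%.

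**Figure D4:**
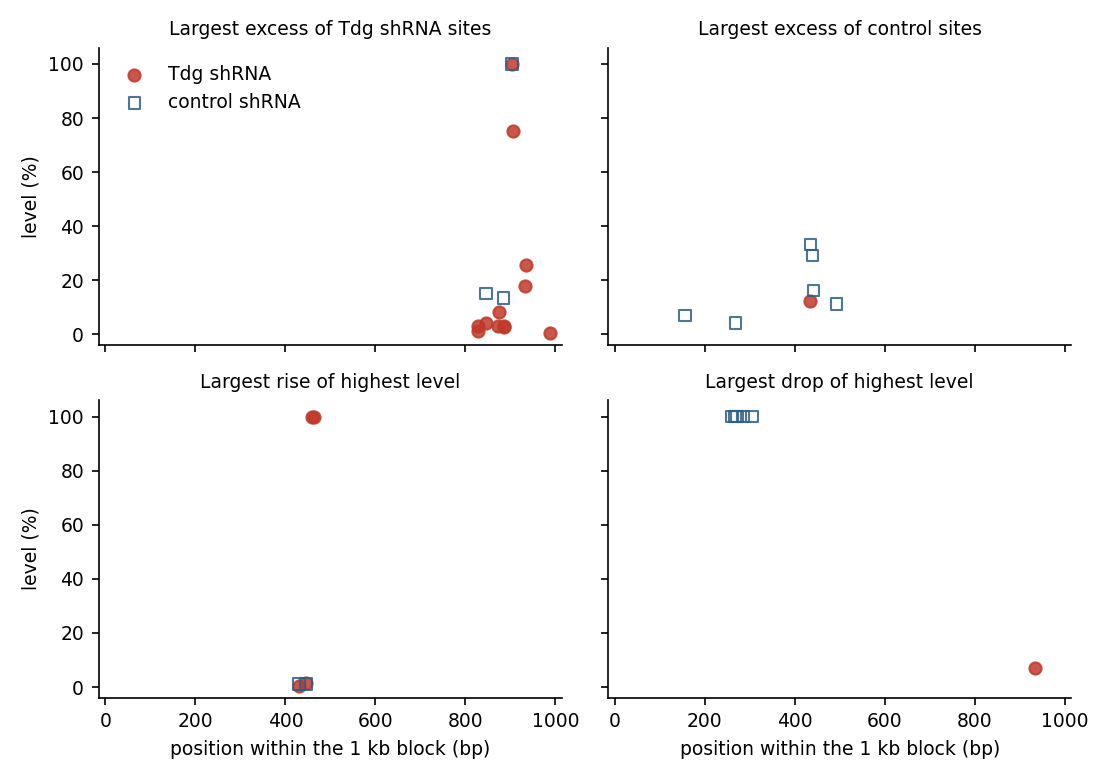
Level of every listed site (y axis, percent) by its position within the block (x axis, bp) in the shared blocks with the largest excess of Tdg shRNA sites (chromosome 9), the largest excess of control sites (chromosome 17), the largest rise (chromosome 8) and the largest drop (chromosome 5). Filled circles are Tdg shRNA and open squares control shRNA sites. In the rise and the drop, the sites at 100% belong to 1 library only.

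The block with the most sites in both libraries together, on chromosome 17 from 39983001 to 39984000, had 7 Tdg shRNA and 9 control sites. Its strongest base, 39983630, was at 100% with either shRNA to 3 digits. Bases 39983240 and 39983242 were at 81.7% and 75.7% with Tdg shRNA and at 97.9% and 93.8% with control shRNA. The control library also listed 5 sites here below 1%, down to 0.360%, which the Tdg shRNA library did not. Up to 2213 reads were recovered in this block. The other blocks with the most sites in both were those on chromosome 9 described above.

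Of the 5 Tdg-only blocks with the most sites, 4 lay at chromosome starts. On chromosome 4 from 3008001 to 3009000 there were 6 sites from 38.0% to 100%, all 6 listed in the second whole-genome library. Its bases at 100%, 3008194 and 3008204, were at 54.0% and 0% in the first whole-genome library. On chromosome 11 from 3001001 to 3002000 there were 5 sites from 28.2% to 98.8%, again all listed there. Also on chromosome 11, the block from 3093001 to 3094000 had 5 sites from 8.997% to 15.4%, and that from 3044001 to 3045000 had 4 sites from 11.4% to 100%. The fifth, on chromosome 7 from 30928001 to 30929000, had 4 sites from 18.0% to 100% within 22 bp, none of them listed in the second whole-genome library. In these blocks together, 15 of 24 sites were listed at the same base in that library.

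The control-only blocks with the most sites were of low level with 1 exception. On chromosome 8 from 41393001 to 41394000, 5 sites lay between 6.59% and 17.6% and the sixth, 41393322, was at 100%. On chromosome 16 from 92697001 to 92698000, 6 sites lay between 4.01% and 7.66%. The remaining 3 had 5 sites each. Their highest levels were 18.3% on chromosome 1 (81689001 to 81690000), 10.7% on chromosome 14 (60870001 to 60871000) and 10.2% on chromosome 12 (110030001 to 110031000). None of the 27 sites was listed at the same base in either whole-genome library.

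A site was listed for wild-type DNA in most blocks of each class, and most often in shared blocks. The first whole-genome library also lists sites at a level of 0%, such as base 3008204 on chromosome 4. A wild-type site is therefore a listed CpG, whatever its level. A site of either whole-genome library lay in 75.9% (74.2% to 77.6%) of shared, 65.3% (63.9% to 66.7%) of Tdg-only and 61.7% (60.6% to 62.8%) of control-only blocks. For the first whole-genome library the shares were 71.1%, 58.8% and 56.1%, and for the second 52.6%, 41.7% and 37.5%. The highest level of the first library in such blocks had a median of 23.5% (22.7% to 24.7%) in shared, 19.6% (18.9% to 20.2%) in Tdg-only and 19.2% (18.7% to 19.6%) in control-only blocks. The most recovered reads at a site of the second library had medians of 17, 16 and 16. The number of CpGs in each block was not used here. The share over all 1 kb blocks of the autosomes was not computed, so these shares compare the classes with each other alone.

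Blocks with a level of 90% or more were the least often listed in wild-type DNA, in each class. At a highest level of 10% to 20%, 83.3% of shared blocks by their Tdg shRNA level and 83.2% by their control level had a wild-type site. At 90% or more the shares were 49.7% (44.5% to 54.9%) and 51.4% (46.5% to 56.3%). In control-only blocks the share was 58.5% from 10% to 20%, 44.1% (32.1% to 56.7%) from 50% to 90% and 32.8% (25.1% to 41.4%) at 90% or more. Tdg-only blocks had 64.0%, 71.6% (60.5% to 81.1%) and 54.4% (45.3% to 63.3%). Without chromosome starts and deep blocks, the last pair of values for Tdg-only blocks was 67.2% (54.6% to 78.2%) and 48.6% (38.9% to 58.4%), beside 44.1% and 33.1% (25.3% to 41.7%) for control-only blocks.

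**Figure D5:**
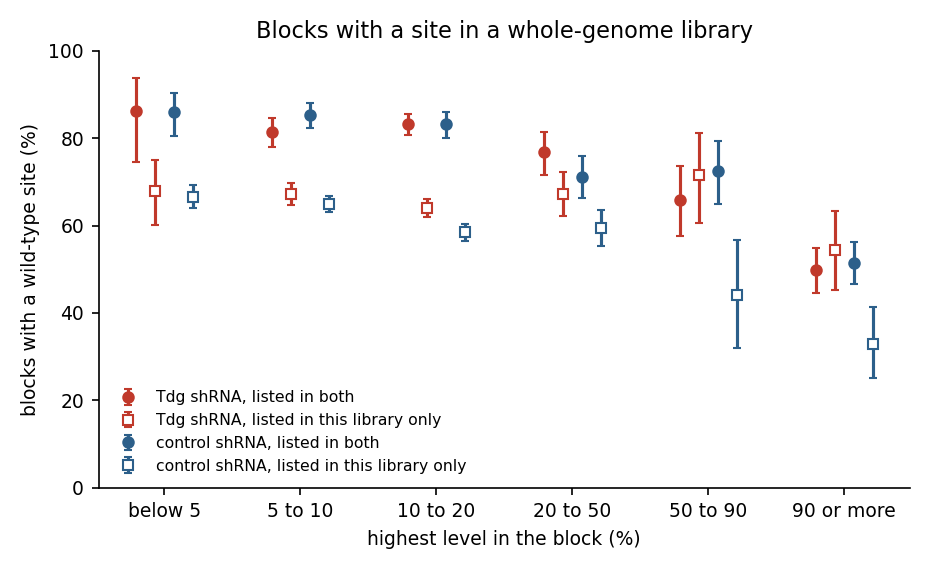
Share of 1 kb blocks with at least 1 site of a wild-type whole-genome library (y axis, percent) by the highest level in the block (x axis, percent). Filled circles are blocks listed in both shRNA libraries, open squares blocks listed in 1 only, and bars exact 95% intervals for counting error. A listed wild-type site counts at any level. At 90% or more the control-only blocks are lowest, at 32.8%.

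Shared blocks with different strongest bases had a wild-type site in 89.7% (87.9% to 91.2%) of cases and those with the same strongest base in 59.2% (56.2% to 62.1%). In each range of the mean level up to 50% the intervals of the 2 shares did not overlap. From 10% to 20% the shares were 89.99% and 64.7%, and from 20% to 50% they were 86.4% and 65.4%. From 50% to 90% the intervals overlapped, at 79.4% (62.1% to 91.3%) and 66.7% (57.9% to 74.6%), and at 90% or more there were only 2 blocks with different bases. A block with different strongest bases holds at least 2 CpGs that could be listed, whereas a block with the same base may hold 1, and the part this played was not tested.

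At the strongest base itself, wild-type listing was rare. Among blocks with the same strongest base, 10.4% (8.66% to 12.4%) had that base listed in either whole-genome library. For Tdg-only blocks it was 7.07% (6.33% to 7.88%) and for control-only blocks 3.38% (2.98% to 3.81%). By library, the shares were 4.78% and 0.981% in the second and 3.51% and 2.55% in the first. Without chromosome starts and deep blocks the values were 6.12% (5.42% to 6.89%) and 3.36% (2.97% to 3.795%). A gap in the same direction was present in shared blocks with different strongest bases. There the share was 7.02% (5.71% to 8.54%) for the Tdg shRNA strongest base and 4.08% (3.08% to 5.29%) for the control one. No split of these shares by level is given. The first library lists the plus strand alone, and the strand of positions in the shRNA libraries is unknown. The share over all CpGs was not computed.

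Where the first whole-genome library gave the bases around the strongest site, the MspI sequence CCGG was found at 11 of 76 sites in blocks with the same strongest base, 14.5% (7.45% to 24.4%). It was found at 1 of 153 in Tdg-only blocks, 0.654% (0.0165% to 3.59%), and at 2 of 192 in control-only blocks, 1.04% (0.126% to 3.71%), beside 10.3% of all sites of that library. In shared blocks with different strongest bases it was found at 1 of 55 Tdg shRNA and 0 of 32 control strongest sites. The commonest 5 bases at strongest sites of Tdg-only blocks were ggCGg, at 16 of 153 (10.5%, 6.10% to 16.4%), beside 3.63% of all sites. This was not particular to Tdg-only blocks. In shared blocks with different strongest bases, ggCGg was at 8 of 55 Tdg shRNA strongest sites (14.5%, 6.50% to 26.7%). It was at 4 of 32 control strongest sites there (12.5%, 3.51% to 29.0%). In control-only blocks ccCGa and ccCGc came first with 11 of 192 each, 5.73% (2.89% to 10.02%), beside 1.82% and 2.23% of all sites. These counts cover only the few strongest sites that wild-type DNA listed at the same base. The shares of all sites are from sheared whole-genome DNA of all chromosomes, and the shRNA libraries were cut with MspI. The sets are thus unlike, and the part of the MspI cut in these differences was not tested.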

How the data were processed

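Genomic DNA of E14 cells was incubated with M.SssI, cut with MspI, treated with M.SssI again after ligation, size-selected at 180 to 350 bp, bisulfite-converted and amplified in 15 PCR cycles, per the labels' protocols. CASAVA 1.8, Bismark 0.10.1 and build mm9 are named in the submitters' processing notes. How sites were called and filtered was not given in the sources used here. The deposited value of the shRNA libraries and the first whole-genome library is a percent. Backgrounds from 0.1% to 10% were tried, and 2.9% (control shRNA) and 3.3% (Tdg shRNA) turned 100% of the deposited percent values (leaving out 100 itself) back into percentages of 2 decimals (tolerance 1e-06). The second whole-genome library was deposited as a p-value per site. Reads were recovered from it as upper binomial tails with a background of 3.8%, for 85.4% of sites, those with p above 1e-07.

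Sites were assigned to blocks of 1000 bp, and the number of sites, highest and mean level and strongest position were taken per block (Python 3.11.15, pandas 2.3.3, SciPy 1.17.1). Intervals are Clopper-Pearson for shares, Poisson for counts, conditional binomial for ratios and order statistics for medians. They treat blocks as independent, which neighbouring blocks are not, and copies made in PCR are counted as if separate. The code was checked on simulated data. Members, classes and lists were chosen with earlier results of these data known. Blocks were named by rank within a class (most sites, largest excess, largest change of highest level, ties broken by mean level, then position). No mm9 genome or annotation was used, so genes, exons and gene lists are not reported here.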

Additional observations from a re-analysis of the deposited data

Results flagged for a closer look

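Outside the sites compared, 3 places went the other way, with more Tdg shRNA sites than control sites and intervals that do not overlap, listed in that order. The left-out start of chromosome 9 held 352 (316.2 to 390.8) and 51 (38.0 to 67.1), the left-out window of chromosome 2 held 72 (56.3 to 90.7) and 22 (13.8 to 33.3), and unplaced or random contigs held 280 (248.2 to 314.8) and 39 (27.7 to 53.3).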

How the results depend on the processing

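Of 61 recomputed values, 51 stayed within the interval of the reported value or, for counts, within 1.5 times it. With an uncorrected level of at least 10%, the ratio of sites was 0.871 and control-only blocks numbered 4887. The share with the same strongest base was then 54.8%, and the median difference of highest level was -0.35 points. The median highest levels were 12.5% for Tdg-only and 12.9% for control-only blocks. These levels lay close together and are after subtraction of backgrounds of 3.3% (Tdg shRNA) and 2.9% (control), so no order is read from them. The same-base share was 49.8% in blocks of 500 bp and 42.0% in blocks of 2 kb, and the cause was not tested. With the background not subtracted, an alternative chosen after seeing the data, the medians were 14.8% and 11.9%. Moved block borders, joined adjacent positions, leaving out blocks of 5 or more sites, and leaving out chromosome starts and deep blocks (also chosen after seeing the data) changed none of the values recomputed under them (7 for moved borders, 8 for each of the others) beyond these limits. No paired analysis was possible because each shRNA group was 1 library, and for the same reason none could be left out. A coverage minimum was not run, since the depth of the shRNA libraries is unknown.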

Other observations

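Adjacent listed bases, as both strands of a CpG would give, occurred 23 times in 10 blocks with Tdg shRNA and 7 times in 5 blocks with control shRNA. On chromosome X, outside the comparison, 260 Tdg shRNA and 381 control sites gave a ratio of 0.682 (0.581 to 0.801), beside 0.644 on the autosomes.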
